A study of Mus musculus with 4 samples.

Results

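Imprinted genes, which are expressed mainly from the copy inherited from 1 parent, were followed in single haematopoietic stem cells of mouse bone marrow. Of 10 genes chosen by name (Meg3, Rian, Mirg, H19, Grb10, Ndn, Peg3, Igf2r, Gnas and Impact), 9 were among the 31053 genes of the count tables, and Rian was not analysed here. The series comprised 4 libraries from 2 male mice aged 14 weeks of the strain Tie2-bG-Micm x RosaYFP, which carries an inducible Cre driven by the Tie2 promoter and a YFP reporter. From each mouse, long-term stem cells (LT-HSC; lineage-negative, Kit and Sca1 positive, with CD150 and without CD48) and short-term stem cells (ST-HSC; the same but without CD150) were sorted. Both gates therefore share the strain, the age, the sex and the 2 animals, and each mouse gave 1 library per gate. Transcripts were counted as unique molecular identifiers (UMIs), tags that let copies of 1 RNA molecule be counted once, with the 10x Chromium 3' v3 kit. One 3' tag stands for 1 molecule, so levels are given as CPM, the UMIs of a gene per 1000000 UMIs of its library, and were not scaled by gene length. The counts do not tell the parental copies apart, so imprinted expression in these cells was not tested.

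Meg3, Rian and Mirg are noncoding RNAs made from the maternal copy of the Dlk1-Dio3 region, where Dlk1 is made from the paternal copy. They lie in a row on the same strand, and Rian and Mirg are hosts of small nucleolar RNAs and microRNAs. In mice, loss of the maternally expressed RNAs of this region impairs long-term stem cells, with higher PI3K and mTOR signalling and more mitochondrial activity. In the other members, maternal H19 is a noncoding RNA that restrains growth, and Grb10 is an adaptor that dampens signalling from the insulin and IGF1 receptors. Ndn (necdin) is a paternally expressed growth suppressor linked to stem cell quiescence in mice, and Peg3 is a paternally expressed zinc finger protein. Igf2r binds IGF2 and carries it to lysosomes, Gnas encodes the stimulatory G protein alpha subunit, and Impact restrains the amino acid sensor GCN2.

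In GENCODE vM21 (GRCm38, the assembly called mm10), Meg3 is a lincRNA gene on the plus strand of chromosome 12 from 109541001 to 109571726, and Mirg a lincRNA gene on the same strand from 109729764 to 109749460. The start of Rian lay 62.9 kb and that of Mirg 189 kb downstream of the start of Meg3. RefSeq (GRCm38.p6) lists 14 microRNA hairpins within Mirg and 3 within Rian, whose mature products these libraries do not measure. Grb10 is a protein-coding gene on the minus strand of chromosome 11 from 11930508 to 12038683, and Ndn a protein-coding gene on the plus strand of chromosome 7 from 62346569 to 62350262. The other members were H19 (chromosome 7, 142575529 to 142578143, minus strand), Peg3 (chromosome 7, 6703892 to 6730431, minus), Igf2r (chromosome 17, 12682406 to 12769664, minus) and Gnas (chromosome 2, 174284320 to 174346744, plus), together with Impact. A lincRNA, Gm26906, overlaps the 3' end of Meg3 on the other strand and had 0 and 2 UMIs in LT-HSC and none in ST-HSC. The sources used here do not say how the counting treated strand, so Meg3 and Gm26906, and likewise Igf2r and its antisense RNA Airn, cannot be fully told apart.

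The promoter windows below belong to the 3 members that differed between the gates, and are shown because Grb10 and Ndn also went with Meg3 among cells. Each holds 250 bases before and 50 after a RefSeq transcript start (GRCm38.p6), read 5' to 3' along the gene; of several starts, the one nearest to the start in GENCODE was taken. Capitals mark TGCCGC or its reverse complement GCGGCA, the core that the imprint-keeping protein ZFP57 binds when it is methylated. The Meg3 window is chr12:109540746-109541045 (plus), the Grb10 window chr11:12037371-12037670 (minus) and the Ndn window chr7:62348027-62348326 (plus).
Meg3: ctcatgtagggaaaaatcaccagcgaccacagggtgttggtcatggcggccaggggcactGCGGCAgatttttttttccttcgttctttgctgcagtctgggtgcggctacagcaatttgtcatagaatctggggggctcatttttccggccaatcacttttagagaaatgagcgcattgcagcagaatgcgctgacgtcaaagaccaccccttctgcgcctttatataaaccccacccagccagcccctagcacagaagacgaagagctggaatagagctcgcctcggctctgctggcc
Grb10: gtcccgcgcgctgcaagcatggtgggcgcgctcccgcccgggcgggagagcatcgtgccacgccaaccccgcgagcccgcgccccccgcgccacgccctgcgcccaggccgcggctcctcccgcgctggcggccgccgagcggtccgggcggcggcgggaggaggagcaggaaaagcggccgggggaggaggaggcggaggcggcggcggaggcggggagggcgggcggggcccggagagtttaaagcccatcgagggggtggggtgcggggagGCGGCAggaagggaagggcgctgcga
Ndn: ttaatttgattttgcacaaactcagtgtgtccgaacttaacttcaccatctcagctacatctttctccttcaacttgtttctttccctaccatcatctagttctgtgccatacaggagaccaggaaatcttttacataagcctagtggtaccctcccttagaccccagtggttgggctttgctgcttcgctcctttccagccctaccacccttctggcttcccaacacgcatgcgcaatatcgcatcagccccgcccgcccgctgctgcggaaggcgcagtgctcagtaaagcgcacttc
The core stood once in the Meg3 window, once in the Grb10 window and not in the Ndn window. Of the 8 members with a window in the table (Meg3, Rian, Mirg, Grb10, Ndn, Peg3, Igf2r and Gnas), 2 held it, against 11.6% of all 32851 windows of this length. The dinucleotide CG occurred 13 times in the Meg3 window, 45 times in the Grb10 window and 11 times in the Ndn window, against a median of 7 over all windows. A match to the core is a description of these letters, not a site of binding.

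The cells kept were those in which 1000 or more genes and 2000 or more UMIs were counted, no more than 10% of them mitochondrial. This left 1217 LT-HSC of mouse 2, 2633 ST-HSC of mouse 1 and 1707 ST-HSC of mouse 2, with median depths of 7504 to 10367 UMIs per cell. The LT-HSC library of mouse 1 stood apart: 22 of its 39553 barcodes passed, with 115305 UMIs in all, against 13249904 to 27870823 UMIs in the other 3 libraries. Its barcodes had a median of 285 UMIs and together held 13575402 UMIs, so results by gate for the members are also given with all of them summed. Slamf1, which encodes the CD150 used for sorting, had 32.8 and 22.4 CPM in LT-HSC of mice 1 and 2, against 0.831 and 1.45 in ST-HSC. Cd48 had 0 and 2.24 CPM in LT-HSC, against 13.05 and 18.6 in ST-HSC, although both gates were sorted without CD48. The stem cell markers Procr, Mecom, Hlf, Kit and Ly6a were present in every library. At most 1 barcode of kept cells was shared between any 2 libraries. The 10 neutrophil markers moved with the gates, with summed levels of 492 and 511 CPM in LT-HSC (4 and 9 markers with a UMI), against 1070 and 2469 CPM in ST-HSC (10 markers each).

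Meg3 was about 7 times higher in LT-HSC than in ST-HSC, the largest difference by gate among the 6 members tested, and Grb10 and Ndn were also higher in LT-HSC. Meg3 had 115 and 141 CPM in LT-HSC of mice 1 and 2, against 18.5 and 18.9 CPM in ST-HSC. The gates did not overlap, and the 2 ST-HSC libraries were nearly equal. The means were 128 ± 18.9 and 18.7 ± 0.284 CPM (SD, n = 2 mice each). The log2 fold change was 2.88 (SE 0.19), with an adjusted p of 3.7e-40 in edgeR's quasi-likelihood test. With all barcodes of the mouse 1 library, Meg3 stood at 112 CPM there and the log2 fold change was 2.80 (adjusted p = 1.2e-06). Where 1 LT-HSC sample was left, the spread came from the 2 ST-HSC libraries, and the lone sample is assumed to vary like them. With all barcodes of mouse 1 as the only LT-HSC sample the log2 fold change was 2.67 (adjusted p = 2.5e-05), and without the mouse 1 LT-HSC library it was 2.92 (adjusted p = 5.8e-06). With the 22 kept cells of mouse 1 as the only LT-HSC sample it was 2.62 (adjusted p = 0.149, the highest over 14 alternatives, the lowest being 2.9e-51).

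**Figure D1:**
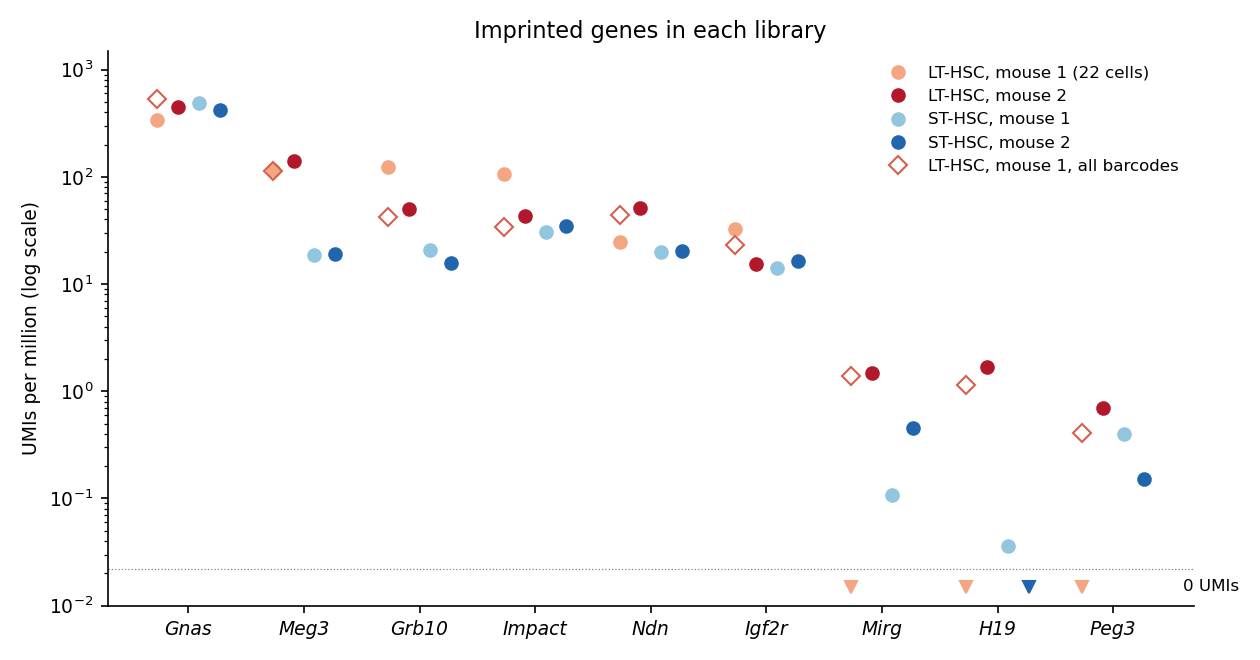
CPM (log scale) of the 9 imprinted genes in each library; filled circles are sums over kept cells, open diamonds are every barcode of the mouse 1 LT-HSC library, and triangles mark 0 UMIs. Meg3 stands at 115 and 141 in LT-HSC and at 18.5 and 18.9 in ST-HSC, while Gnas lies between 336 and 489 in all 4 libraries.

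Grb10 had 123 and 50.4 CPM in LT-HSC of mice 1 and 2, against 20.6 and 15.8 in ST-HSC. Both LT-HSC libraries lay above both ST-HSC libraries, although the mouse 1 value rests on 15 UMIs. The log2 fold change was 1.62 (SE 0.21; edgeR adjusted p = 1.1e-11), and 1.38 (adjusted p = 0.00021) with all barcodes of mouse 1, where Grb10 stood at 42.6 CPM. Ndn had 24.6 and 50.8 CPM in LT-HSC, against 19.8 and 20.5 in ST-HSC. Again the gates did not overlap, but the 3 UMIs of mouse 1 LT-HSC left that library close to ST-HSC. The log2 fold change of Ndn was 1.28 (SE 0.21; edgeR adjusted p = 7.6e-08), and 1.28 (adjusted p = 0.00014) with all barcodes of mouse 1, where Ndn stood at 44.4 CPM. DESeq2, run on the sums over kept cells, called Meg3 (adjusted p = 6.3e-10) and Grb10 (adjusted p = 0.024) and did not call Ndn (adjusted p above 0.99). With the 22 kept cells of mouse 1 as the only LT-HSC sample, Grb10 was at 2.74 (adjusted p = 0.20) and Ndn at 0.28 (adjusted p = 0.90). Over 14 alternatives the lowest adjusted p was 2.9e-13 for Grb10 and 3.8e-10 for Ndn, and those given here for Grb10 (0.20) and Ndn (above 0.99) were the highest.

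Impact, Igf2r and Gnas did not pass the test between the gates. Impact had 107 and 43.0 CPM in LT-HSC, against 30.6 and 35.1 in ST-HSC, with a log2 fold change of 0.55 (SE 0.22; edgeR adjusted p = 0.131). Its 2 LT-HSC libraries lay above both ST-HSC libraries, the higher one being that of 22 cells; with all barcodes of that library it stood at 34.0 and the groups overlapped. Igf2r had 32.8 and 15.4 CPM in LT-HSC, against 14.2 and 16.4 in ST-HSC, and the groups overlapped (log2 fold change 0.08, SE 0.24). Gnas had 336 and 448 CPM in LT-HSC, against 489 and 422 in ST-HSC, and the groups overlapped (log2 fold change -0.15, SE 0.20).

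Mirg, H19 and Peg3 were too rare for the test over kept cells and are given as UMIs. Mirg had 0 and 19 UMIs in LT-HSC of mice 1 and 2, against 3 and 6 in ST-HSC, or 0 and 1.47 against 0.108 and 0.457 CPM. The mouse 1 LT-HSC library was too shallow to show such levels, since 3 UMIs in its kept cells amount to 24.6 CPM. With all its barcodes it held 17 Mirg UMIs (1.40 CPM), and Mirg was then called higher in LT-HSC (log2 fold change 2.64, SE 0.60, edgeR adjusted p = 0.015). H19 had 0 and 22 UMIs in LT-HSC, against 1 and 0 in ST-HSC. Taken as UMIs per total UMIs of each gate, this was 68.2 times the ST-HSC level, with a counting interval of 11.0 to 2815. All 22 LT-HSC UMIs came from mouse 2, so this is not a ratio over 2 mice. All barcodes of the mouse 1 LT-HSC library held 14 H19 UMIs, and H19 was then called with a log2 fold change of 5.53 (adjusted p = 0.00070). Peg3 had 0 and 9 UMIs in LT-HSC, against 11 and 2 in ST-HSC, and the groups overlapped. B830012L14Rik, a noncoding gene between Rian and Mirg that was added in place of Rian, had 0 and 14 UMIs in LT-HSC, against 2 and 0 in ST-HSC, and all barcodes of mouse 1 LT-HSC held 4. Gm26945, which lies inside Rian, had no UMI in any library.

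Of the 6 members tested, 3 rose in LT-HSC (Meg3, Grb10 and Ndn), none was higher in ST-HSC and 3 did not pass. Over all 12656 genes tested, 3.6% passed as higher in LT-HSC and 3.13% as lower, at an adjusted p under 0.05. The members' median log2 fold change was 0.92, against -0.02 over all genes. With all barcodes of the mouse 1 LT-HSC library, 5 of 8 members tested were higher in LT-HSC (Mirg and H19 in addition), against 5.04% of all 12892 genes (3.82% were lower). Mirg and H19 passed the low-count filter there through the LT-HSC libraries, where they held most UMIs. Their 2 calls are therefore no separate support. Without the low-count filter the same 5 members passed, against 3.32% of all genes (2.31% were lower). With the 22 kept cells as the only LT-HSC sample, none was called. Without cells in which markers of another cell type held at least 1% of UMIs, Meg3 was at 2.87, Grb10 at 1.58 and Ndn at 1.27, and each passed. DESeq2 called 2 members, against 0.229% of all genes higher and 0.19% lower in LT-HSC.

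Among 67 other genes with imprinted expression reported in mice, 65 were in the count tables and 39 were tested. Of these, 4 rose in LT-HSC and none was higher in ST-HSC, against 3.6% and 3.13% of all genes. The median log2 fold change of the 39 was 0.05. Dlk1, the paternally expressed neighbour of Meg3 that encodes a Notch-like transmembrane protein, had 0 and 9.49 CPM in LT-HSC, against 1.19 and 2.21 in ST-HSC. The kept cells of mouse 1 held no Dlk1 UMI, but all its barcodes held 98 (8.08 CPM). Its log2 fold change was 2.5 (SE 0.37; edgeR adjusted p = 5.8e-09), and 2.49 with all barcodes. Snrpn, a splicing protein gene, had 8.20 and 5.25 CPM in LT-HSC, against 1.08 and 1.29 in ST-HSC (log2 fold change 2.18, SE 0.43, adjusted p = 2.7e-05). The mouse 1 LT-HSC value of Snrpn rests on 1 UMI and was 4.04 CPM with all barcodes. Cdkn1c, which encodes the cyclin-dependent kinase inhibitor p57, had 73.8 and 72.3 CPM in LT-HSC, against 24.5 and 26.3 in ST-HSC. The gates did not overlap (log2 fold change 1.51, SE 0.21, adjusted p = 7.0e-11). Its mouse 1 LT-HSC value rests on 9 UMIs and was 59.9 CPM with all barcodes, so the closeness of the 2 mice is within counting error. Ampd3, an AMP deaminase gene, had 16.4 and 8.49 CPM in LT-HSC, against 3.83 and 3.65 in ST-HSC (log2 fold change 1.22, SE 0.34, adjusted p = 0.0072). For Ampd3 the mouse 1 LT-HSC value rests on 2 UMIs and was 7.34 CPM with all barcodes. With the 22 kept cells of mouse 1 as the only LT-HSC sample, none of Dlk1, Snrpn, Cdkn1c and Ampd3 passed. DESeq2 called none of these 4 (adjusted p = 0.145 for Cdkn1c and above 0.99 for the others). With all barcodes of mouse 1, Snrpn was at 2.03, Cdkn1c at 1.42 and Ampd3 at 1.12. In that setting 5 of 40 such genes were higher in LT-HSC, against 5.04% of all genes. The fifth was Phlda2, a growth-restraining gene, with a log2 fold change of 0.65 (edgeR adjusted p = 0.017). The imprinted genes of this list with the highest mean level, Kcnq1ot1, Cd81 and Tspan32, did not pass, with log2 fold changes of 0.24, 0.12 and 0.01. Of these, Kcnq1ot1 is a noncoding RNA antisense to Kcnq1, and Cd81 and Tspan32 are tetraspanins.

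**Figure D2:**
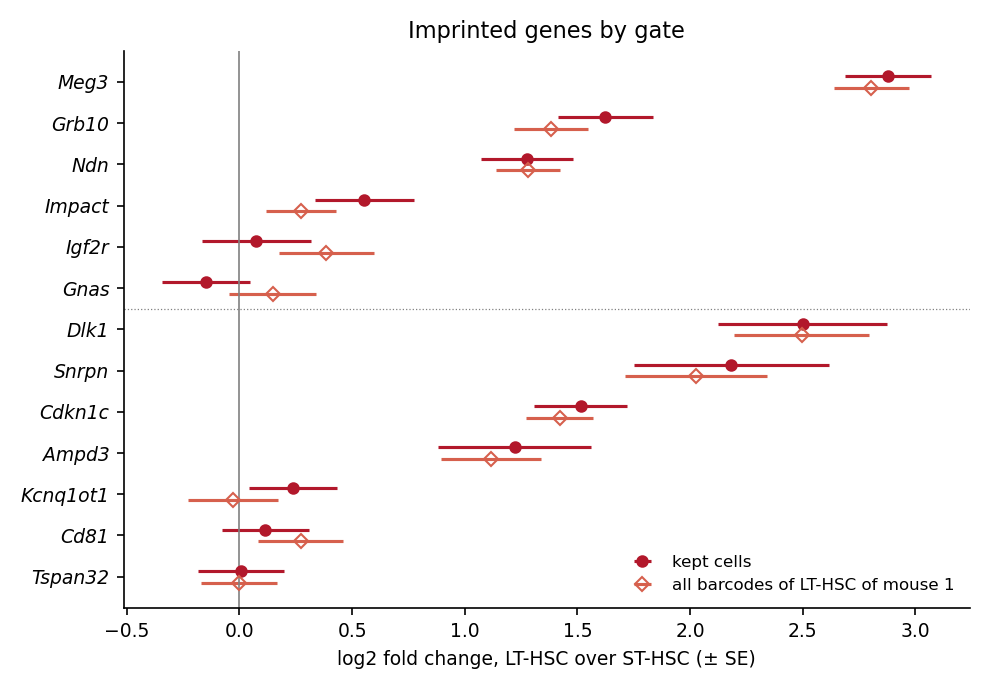
Log2 fold change of LT-HSC over ST-HSC (± SE from edgeR) for the tested members (above the dotted line) and the named other imprinted genes (below it), from kept cells (filled) and with every barcode of the mouse 1 LT-HSC library (open). Meg3 at 2.88 is farthest to the right, and Gnas, Kcnq1ot1 and Tspan32 lie at or near 0 on opposite sides in the 2 settings.

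The difference in Meg3 by gate showed mostly in the share of cells with a Meg3 UMI, and a cell without one may still hold Meg3 RNA. To compare cells of unequal depth, each kept cell with at least 4000 UMIs was thinned at random to 4000 UMIs, which left out 10 and 49 LT-HSC of mice 1 and 2, and 30 and 29 ST-HSC. Meg3 then had a UMI in 4 of 12 LT-HSC of mouse 1 and in 24.9% of 1168 LT-HSC of mouse 2, against 4.15% of 2603 ST-HSC of mouse 1 and 5.01% of 1678 ST-HSC of mouse 2. The exact 95% intervals, which cover counting error only, were 9.92 to 65.1% and 22.5 to 27.5% in LT-HSC, against 3.42 to 4.99% and 4.01 to 6.16% in ST-HSC. Without thinning the shares were 27.3 and 32.0% in LT-HSC, against 6.30 and 6.85% in ST-HSC. A Meg3-positive cell held on average 2 and 2.67 thinned Meg3 UMIs in LT-HSC of mice 1 and 2, against 2.28 and 1.85 in ST-HSC. These means overlapped between the gates only through LT-HSC of mouse 1, whose mean comes from 4 cells. Without thinning they were 2.33 and 4.71 UMIs in LT-HSC of mice 1 and 2, against 3.08 and 2.12 in ST-HSC. LT-HSC of mouse 2 thus had the highest mean in both settings. As a measure of free RNA, Meg3 was looked for in the 16 kept cells in which neutrophil genes held at least 1% of UMIs (median depth 7498.5 UMIs), and 0 of 16 had a UMI, which allows a share of up to 18.8%. At that number of cells a background near the ST-HSC shares could not have been seen.

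Meg3 was far more uneven between cells than a random draw of the same mean. Its variance was 3.48 times its mean in LT-HSC of mouse 2, against 3.65 and 2.52 times in ST-HSC of mice 1 and 2, where a Poisson law gives a ratio of 1. A Poisson law with the same mean would put Meg3 in 48.6% of LT-HSC of mouse 2, against 9.02 and 8.82% of ST-HSC, so it was seen in far fewer cells than that in each library. At the other end, 45 LT-HSC of mouse 2 held 5 or more Meg3 UMIs, against 12 and 4 ST-HSC of mice 1 and 2. In LT-HSC of mouse 2, the 10% of cells with the most Meg3 held 68.4% of its UMIs. Of the genes whose mean lay within 1.5 times that of Meg3, 5 of 768 had a higher ratio in LT-HSC of mouse 2, against 6 of 3021 and 8 of 2926 in ST-HSC. Most of these were genes of other cell types or of activated cells, among them S100a8, S100a9, Camp, Ngp, Elane, Mpo, Prss34, Hbb-bt, Hba-a1, Cd74, Ccl5 and Cxcl10. The other tested members were close to a ratio of 1 in these 3 libraries. Grb10 gave 1.09 in LT-HSC of mouse 2, against 1.18 and 1.15 in ST-HSC, and Ndn gave 1.09, against 1.02 and 1.14. Gnas, the member present in most cells, gave 1.11 in LT-HSC of mouse 2, against 1.05 and 0.992 in ST-HSC.

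**Figure D3:**
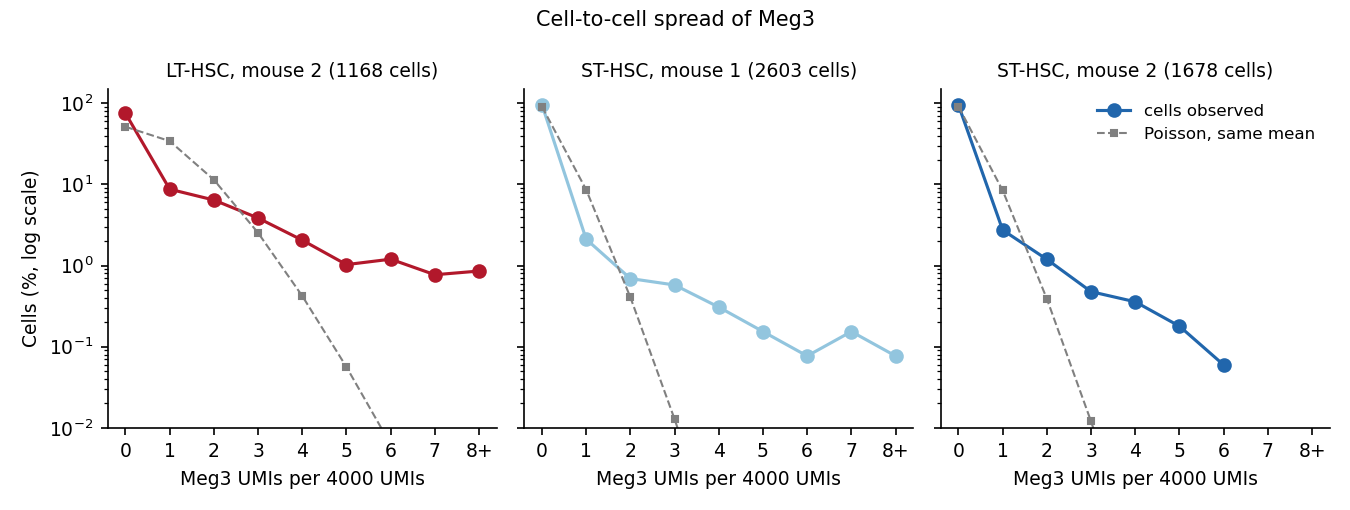
Share of cells (log scale) by the number of Meg3 UMIs in cells thinned to 4000 UMIs, for LT-HSC of mouse 2 and ST-HSC of mice 1 and 2; dashed lines give a Poisson law of the same mean. In each library there are more cells at 0 and more at 3 UMIs and above than the Poisson law gives; no point is drawn where no cell was found.

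Mirg, the downstream neighbour of Meg3, was found almost only in cells that also held Meg3. In LT-HSC of mouse 2, Mirg had a UMI in 8 of 291 Meg3-positive cells and in 1 of 877 Meg3-negative cells. In ST-HSC it had a UMI in 1 of 108 and 2 of 84 Meg3-positive cells of mice 1 and 2, and in none of 2495 and none of 1594 Meg3-negative cells, which allow shares of up to 0.12% and 0.188%. Counted the other way, Meg3 was in 8 of 9 Mirg-positive LT-HSC of mouse 2, against 24.4% of those without Mirg. In ST-HSC it was in 1 of 1 and 2 of 2 Mirg-positive cells of mice 1 and 2, against 4.11% and 4.89% of those without. Most of these cells were thus LT-HSC of mouse 2, and the ST-HSC shares rest on 3 cells. In full counts, depth also bears on which cells show a gene. There Meg3 was in 16 of 19 Mirg-positive LT-HSC of mouse 2, against 31.1% of those without Mirg. In ST-HSC it was in 3 of 3 and 6 of 6, against 6.20% and 6.53% of those without. Over 10 random draws of the thinning, the lowest share of Mirg-positive cells with Meg3, pooled over the 3 libraries, was 71.4% and the highest 93.3%. B830012L14Rik in LT-HSC of mouse 2 came with Meg3 in 13 of 13 cells in full counts and in 5 of 7 after thinning. H19, from another chromosome, came with Meg3 in 4 of 4 LT-HSC of mouse 2 after thinning and in 15 of 17 in full counts. Peg3 came with Meg3 in 0 of 3 LT-HSC of mouse 2 and 0 of 7 ST-HSC of mouse 1 after thinning. In full counts it did so in 5 of 8 LT-HSC of mouse 2, and in 1 of 11 and 1 of 2 ST-HSC of mice 1 and 2. Both genes rest on few cells, and over the added draws the pooled share with Meg3 was as low as 33.3% for H19 (1 of 3 cells) and as high as 50% for Peg3 (2 of 4 cells).

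The shares for Ndn and Grb10 were closer between Meg3-positive and Meg3-negative cells. In LT-HSC of mouse 2, Ndn had a UMI in 24.1% of Meg3-positive and 16.9% of Meg3-negative cells. In ST-HSC of mouse 1 it had one in 16.7% of Meg3-positive and 8.02% of Meg3-negative cells, and in ST-HSC of mouse 2 in 7.14% and 7.65%. The share was thus higher with Meg3 in 2 of 3 libraries. Grb10 in LT-HSC of mouse 2 had a UMI in 22.7% of Meg3-positive and 16.8% of Meg3-negative cells. In ST-HSC of mouse 1 the shares were 12.96% and 6.89%, and in ST-HSC of mouse 2 they were 8.33% and 5.46%, so Grb10 was more often seen with Meg3 in all 3 libraries. Gnas was seen in 80.1% of Meg3-positive and 81.6% of Meg3-negative LT-HSC of mouse 2, in 82.4% and 84.6% of ST-HSC of mouse 1, and in 88.1% and 80.6% of ST-HSC of mouse 2.

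**Figure D4:**
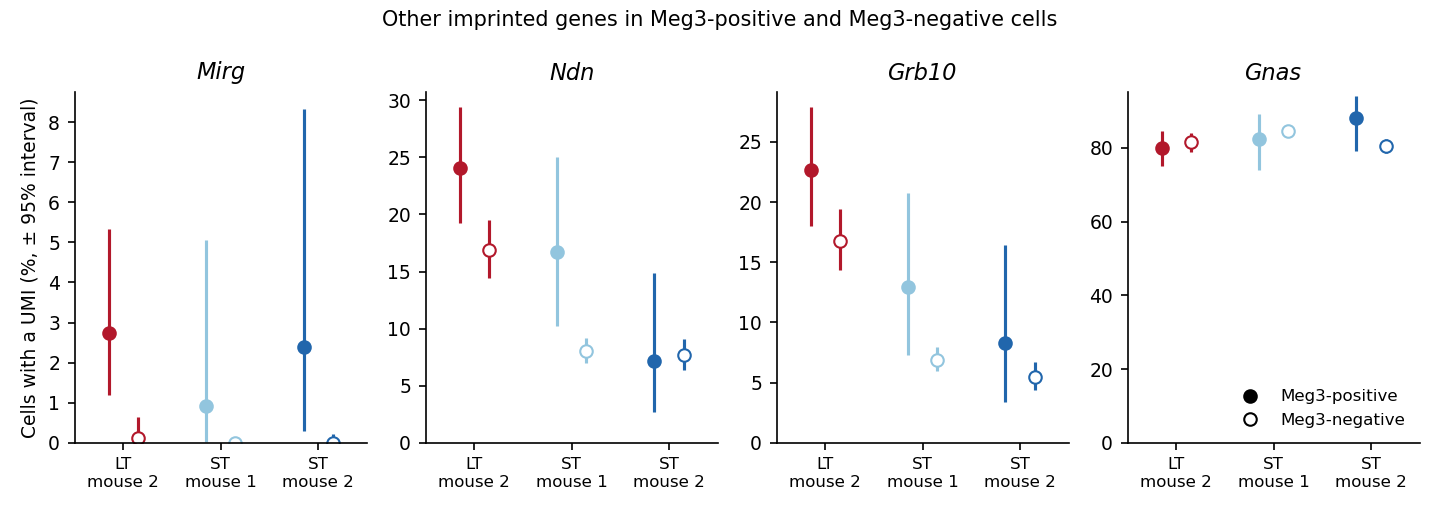
Share of cells with a UMI of Mirg, Ndn, Grb10 or Gnas among Meg3-positive (filled) and Meg3-negative cells (open) thinned to 4000 UMIs; bars are exact 95% intervals for counting error, and the y axes differ. Mirg stands at 2.75% of Meg3-positive and 0.114% of Meg3-negative LT-HSC of mouse 2, while Gnas is seen in over 80% of both.

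To test which genes go with Meg3, the thinned UMIs were summed over Meg3-positive and over Meg3-negative cells of each of the 3 deep libraries, and compared in edgeR with the library as a block. Of the 5 members tested, Grb10 and Ndn rose in Meg3-positive cells, none fell, and Igf2r, Impact and Gnas did not pass. Over all 10788 genes tested, 2.51% were called higher and 2.85% lower in Meg3-positive cells, and the members' median log2 fold change was 0.58, against 0.01 over all genes. Grb10 had 72.6, 43.9 and 27.0 CPM in Meg3-positive LT-HSC of mouse 2 and ST-HSC of mice 1 and 2, against 46.8, 18.995 and 15.1 in Meg3-negative cells. It was higher with Meg3 in 3 of 3 libraries (log2 fold change 0.78, SE 0.19, edgeR adjusted p = 0.0016). Ndn had 74.4, 46.2 and 24.0 CPM in Meg3-positive cells, against 48.0, 20.8 and 21.3 in Meg3-negative cells. It too was higher in 3 of 3 libraries, least so in ST-HSC of mouse 2, where the Meg3-positive value rests on 8 UMIs (log2 fold change 0.69, SE 0.18, edgeR adjusted p = 0.0057).

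These members are low in UMIs, and their calls moved with the random draw of the thinning. Over 10 draws Ndn passed in 9 (edgeR adjusted p up to 0.053) and Grb10 in 8 (adjusted p up to 0.094), with log2 fold changes of 0.64 to 1.00 for Ndn and 0.55 to 0.85 for Grb10. With the full counts of all cells, which need no draw, both passed in edgeR (Ndn 0.81, adjusted p = 0.00014, and Grb10 0.66, adjusted p = 0.0010). In full counts, however, depth bears on which cells show Meg3. Without LT-HSC of mouse 2 neither passed (Ndn 0.81, adjusted p = 0.27; Grb10 1.08, adjusted p = 0.060), and without ST-HSC of mouse 1 neither passed (adjusted p = 0.13 and 0.055). Over 22 alternatives the adjusted p ran from 1.8e-06 to 0.57 for Ndn and from 0.00024 to 0.57 for Grb10. Of all genes, 1.06% were called higher and 0.922% lower without LT-HSC of mouse 2. DESeq2 called no member, against 0.704% of all genes higher and 0.519% lower. Mirg had 7.08 CPM in Meg3-positive and 0.286 in Meg3-negative LT-HSC of mouse 2 (8 and 1 UMIs). In ST-HSC of mice 1 and 2 it had 2.31 and 6.01 CPM in Meg3-positive cells (1 and 2 UMIs), and no UMI in Meg3-negative cells. It passed the low-count filter in 6 of 10 draws and was called in each of these 6, with log2 fold changes of 4.03 to 6.09. Since nearly all its UMIs lay in Meg3-positive cells, Mirg passed that filter through them. The calls in these 6 draws therefore lend no separate support.

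Impact had 53.1, 48.5 and 45.1 CPM in Meg3-positive cells of the 3 libraries, against 46.3, 33.6 and 35.3 in Meg3-negative cells (log2 fold change 0.31, SE 0.18, edgeR adjusted p = 0.41). It lay higher with Meg3 in each library without passing. Igf2r had 23.9, 16.2 and 18.02 CPM in Meg3-positive cells, against 11.1, 14.6 and 18.5 in Meg3-negative cells (log2 fold change 0.58, SE 0.28, adjusted p = 0.27), and passed in 1 of 10 draws. Gnas had 452, 439 and 427 CPM in Meg3-positive cells, against 437, 472 and 415 in Meg3-negative cells, and its log2 fold change was 0.00 (SE 0.06).

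Of 33 other imprinted genes tested, 3 rose in Meg3-positive cells (Cdkn1c, Dlk1 and Cd81), 1 fell (Slc22a3) and 29 did not pass. Over all genes tested, 2.51% were called higher and 2.85% lower, so the count that fell was near that share. Cdkn1c had 121, 60.1 and 51.1 CPM in Meg3-positive cells of the 3 libraries, against 68.8, 25.1 and 26.2 in Meg3-negative cells. It was about 2 times higher with Meg3 in every library (log2 fold change 0.93, SE 0.15, edgeR adjusted p = 1.2e-07). Dlk1 had 37.2, 0 and 9.01 CPM in Meg3-positive cells, against 3.71, 0.984 and 2.21 in Meg3-negative cells. Its 45 UMIs in Meg3-positive cells were 42 from LT-HSC and 3 from ST-HSC of mouse 2, with none from mouse 1 (log2 fold change 2.75, SE 0.43, edgeR adjusted p = 2.6e-08). Dlk1 passed the low-count filter through its Meg3-positive sums, so its call lends no separate support. Cd81 had 513, 377 and 460 CPM in Meg3-positive cells, against 400, 297 and 380 in Meg3-negative cells (log2 fold change 0.33, SE 0.07, adjusted p = 4.0e-05). Slc22a3, an organic cation transporter gene of the Igf2r cluster, had 9.74, 16.2 and 12.02 CPM in Meg3-positive cells, against 37.4, 33.6 and 25.2 in Meg3-negative cells (log2 fold change -1.54, SE 0.28, adjusted p = 6.3e-06). The calls of Cdkn1c, Cd81 and Slc22a3 held in 10 of 10 draws. Dlk1 was called in 10 of 10 as well, which adds no separate support. Without LT-HSC of mouse 2, Cdkn1c (1.14) and Cd81 (0.32) still passed, Slc22a3 did not (-1.05, adjusted p = 0.22) and Dlk1 was too rare to test. DESeq2 called Cdkn1c and Cd81 and not Slc22a3 (adjusted p = 0.070), and gave no adjusted p for Dlk1.

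The genes that moved with Meg3 were compared with lists of the pathways and states known for these cells. The counts for these lists stand against 2.51% of all genes called higher and 2.85% called lower. Without LT-HSC of mouse 2 these shares were 1.06% and 0.922%, and with DESeq2 they were 0.704% and 0.519%. Of 30 stem cell enriched genes, 16 rose in Meg3-positive cells and none fell, with a median log2 fold change of 0.48. Among them, Ifitm1, an interferon-induced membrane protein gene, had 2639, 1953 and 2590 CPM in Meg3-positive cells of the 3 libraries, against 1587, 1208 and 1627 in Meg3-negative cells (log2 fold change 0.70, SE 0.03). Mllt3, a chromatin reader that maintains stem cells, had 428, 254 and 240 CPM in Meg3-positive cells, against 234, 103 and 94.2 in Meg3-negative cells (log2 fold change 1.06, SE 0.08). Without LT-HSC of mouse 2, 8 of 29 of these genes rose, so fewer calls were made in ST-HSC alone, where Ifitm1 was at 0.69 and Mllt3 at 1.33.

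Of 19 multipotent progenitor genes, 11 fell in Meg3-positive cells and none rose (median -1.01). Mpo and Ctsg are in this list and in that of neutrophils; without cells of other types, 9 of 18 fell. Plac8, a gene of early lineage priming, had 36.3, 194 and 165 CPM in Meg3-positive cells, against 116, 420 and 409 in Meg3-negative cells (log2 fold change -1.31, SE 0.10). Cell cycle genes fell with Meg3: 21 of 39 S phase genes (median -0.70) and 17 of 40 G2/M genes (median -1.18), with none higher in either list. Hmgb2, a chromatin protein of dividing cells, had 234, 275 and 255 CPM in Meg3-positive cells, against 456, 475 and 463 in Meg3-negative cells (log2 fold change -0.89, SE 0.07). Top2a, the topoisomerase of dividing cells, had 12.4, 13.9 and 0 CPM in Meg3-positive cells, against 57.4, 42.5 and 24.6 in Meg3-negative cells. The G2/M count ran from 8 to 19 and the S phase count from 17 to 24 over 10 draws. Without LT-HSC of mouse 2, 6 of 19 multipotent progenitor, 5 of 40 S phase and 9 of 42 G2/M genes fell. DESeq2 called fewer, namely 10 of the stem cell enriched genes higher, and 4 multipotent progenitor, 1 S phase and 4 G2/M genes lower.

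Of 18 genes linked to quiescence, 5 rose (Cdkn1c, Txnip, Egr1, Ndn and Socs2) and Cdkn2c fell (median 0.12); Ndn and Cdkn1c are counted here and among the imprinted genes. Of 33 genes of the PI3K and mTOR pathways, Pik3r1, a regulatory subunit of PI3K, and Sesn1, a stress-induced inhibitor of mTOR complex activity, rose and none fell (median -0.01). Sesn1 passed in 6 of 22 alternatives, not among them DESeq2 (adjusted p = 0.45) or leaving out LT-HSC of mouse 2 (adjusted p = 0.083), and Pik3r1 in 21. Of 76 nuclear genes of oxidative phosphorylation, 10 fell and 1 rose (median -0.10), and over 10 draws 5 to 10 fell. None of the 13 mitochondrially encoded genes passed. Of 12 megakaryocyte genes, 3 rose, Vwf and Fli1 among them, and Plek fell, with 1 to 3 higher over 10 draws. Without LT-HSC of mouse 2, the oxidative phosphorylation genes that fell were 2, the quiescence genes that rose were Cdkn1c, Txnip and Socs2, and the only megakaryocyte gene that rose was Fli1. With DESeq2, 2 oxidative phosphorylation genes fell, the same 3 quiescence genes rose, and no megakaryocyte gene rose. Fli1 passed in 9 of 22 alternatives. Vwf passed in 17 and had 2 UMIs in Meg3-positive cells of each ST-HSC library (edgeR adjusted p = 0.82 without LT-HSC of mouse 2).

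**Figure D5:**
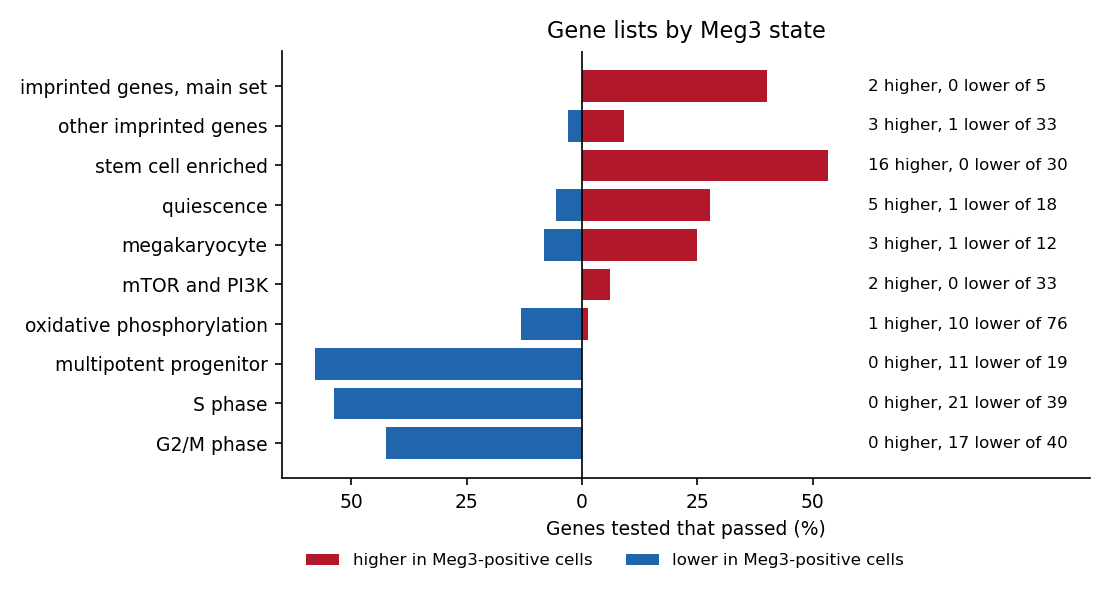
Share of the tested genes of each list that passed at an adjusted p under 0.05 as higher (red, to the right) or lower (blue, to the left) in Meg3-positive than in Meg3-negative cells; counts stand at the right. Over all 10788 genes tested, 2.51% were higher and 2.85% lower; the stem cell enriched list has 16 of 30 higher and the S phase list 21 of 39 lower.

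Among genes with a mean of at least 20 CPM and the same direction in each library, the 10 with the largest rise included Sult1a1, Ryk, Wfdc2, Jam3, Mamdc2, Tinagl1, Trpc6, Slfn2 and Mllt3. Ryk, a Wnt receptor gene, had 77.9, 32.4 and 48.1 CPM in Meg3-positive cells, against 36.8, 12.2 and 14.4 in Meg3-negative cells (log2 fold change 1.26, SE 0.20). Jam3, an adhesion protein gene, had 39.8, 20.8 and 27.0 CPM in Meg3-positive cells, against 22.3, 5.61 and 9.78 in Meg3-negative cells (log2 fold change 1.13, SE 0.26). Both Ryk and Jam3 were higher with Meg3 in every library.

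The 10 with the largest fall included Camp, Retnlg, S100a8, S100a9, Tyrobp, Top2a, Nkg7, Runx3 and Slc22a3. S100a8 and S100a9, calcium-binding protein genes of neutrophils, had 9 and 14 UMIs in Meg3-positive cells, against 9196 and 7173 in Meg3-negative cells. Of 9 neutrophil markers tested, 8 fell. The list's summed level was 399 to 499 CPM in Meg3-positive cells, against 840 to 2572 in Meg3-negative cells. In Meg3-positive LT-HSC of mouse 2, 3 of the 10 markers had a UMI. There S100a8 and S100a9 gave 4.43 and 7.97 of the 399 CPM, the rest being Prtn3. These markers held at least 1% of UMIs in 1 LT-HSC of mouse 2, and in 5 and 10 ST-HSC of mice 1 and 2. None of these cells held a Meg3 UMI, but most cells of the ST-HSC libraries were Meg3-negative. Camp, Ctsg and Lcn2 had no UMI in Meg3-positive cells of any library. They, and Retnlg with 1 UMI there, thus passed the low-count filter through Meg3-negative cells, and their falls lend no separate support. Without the cells in which 1 of the lists of other cell types held at least 1% of UMIs, the log2 fold change of S100a8 was -0.05 (adjusted p = 0.99) and that of S100a9 0.54 (adjusted p = 0.67). Of the 4 neutrophil genes then tested, 0 were called in either direction, with a median log2 fold change of 0.01. In that setting Grb10 was at 0.78 (adjusted p = 0.0016) and Ndn at 0.68 (adjusted p = 0.0074), and 16 of 30 stem cell enriched genes were higher and 21 of 39 S phase genes lower.

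The other lists of cell types gave few calls. Both basophil and mast cell genes tested fell, and the list's summed level was 0 to 3.004 CPM in Meg3-positive cells, against 3.998 to 51.9 in Meg3-negative cells. Both genes had no UMI in Meg3-positive cells and so passed the low-count filter through Meg3-negative cells. Their falls therefore lend no separate support. This list held at least 1% of UMIs in only 1 kept cell of each ST-HSC library. Without cells of other types, 0 of its genes could be tested. Of 2 lymphocyte genes tested, Nkg7 fell. Of 3 erythroid genes, Hbb-bt rose and Hbb-bs fell; reads of these near-identical globin genes may be split by the counting. No macrophage and no stromal or endothelial gene passed, of 2 tested in each list.

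As a description over single cells, genes were ranked by the correlation of their thinned level with that of Meg3, averaged over the 3 libraries, whose cells share depth and preparation. Among 4975 genes with at least 0.1 UMI per cell in each library, all correlations were weak, between -0.17 and 0.20, with 95% of the means between -0.05 and 0.05. The 12 most alike were Ifitm1 (0.20), Mllt3 (0.18), Malat1, Rps27, Rplp1, Ifitm3, Rpl21, Pdzk1ip1, Rps21, Hacd4, Rpl30 and Ly6a (0.12). The least alike were H2afy (-0.17), Plac8, Cmtm7, Actg1 and Gmfg. Impact (0.04) and Gnas (0.00) were the members above that level. Below it, Mirg had a mean correlation of 0.16, Grb10 0.05, Ndn 0.05 and Igf2r 0.03. Apart from Mirg, these members lay below all of the 12 most alike genes on this measure. Several of the 12 are ribosomal protein genes; over all 88 ribosomal protein genes the median was 0.02, and 58 were above 0.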

How the data were processed

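The authors deposited raw UMI counts per gene and barcode for each of the 4 libraries, made with Cell Ranger 3.1.0 on mm10, per the submitters' processing notes (3.0.2 in the matrix headers, per the file headers). The annotation, the treatment of strand and the choice of barcodes are not given in the sources used here. No column of other samples was present (0).

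Cells were kept from 1000 genes and 2000 UMIs upward if no more than 10% of their UMIs were mitochondrial. No doublet caller was run; leaving out cells above 2.5 times their library's median UMIs was an alternative. Counts were summed per library and tested with edgeR 4.0.16 (TMM, default low-count filter, quasi-likelihood test, Benjamini-Hochberg over all genes, threshold 0.05), with DESeq2 1.42.0 as an alternative. CPM use TMM library sizes. For cell-level results, cells were thinned to 4000 UMIs in the 3 libraries with over 500 kept cells, and Meg3-positive means at least 1 thinned Meg3 UMI. The first draws used 1 random stream per library; the seeding was then changed to 1 per cell, and 8 draws, the first 2 included, were added to the reported draw and the draw from another seed. On simulated counts the gate test (12491 genes) recovered 88% of genes changed by 1 log2 unit and the Meg3 test (10497 genes) 93%. False calls were 8 and 7. Only genes of 20 or more CPM were changed there, so the shares do not cover lower genes such as Igf2r, Dlk1, Snrpn and Ampd3. Alternatives were other depths, draws, filters, scalings and cell exclusions, the replicate block, and leaving out each library.

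The members and gene lists were chosen with earlier results of these data known. The planned use of Rian was not possible, and B830012L14Rik and Gm26945 were added. Named genes were all members, other imprinted genes past the gate threshold or of highest mean (3), the 10 largest changes in each direction with Meg3 at 20 or more CPM, the 12 most and 5 least alike, and up to 3 per list. A few genes that this rule names are not reported here. Same-numbered libraries come from the same mouse, per the labels; the differences between mice correlated at 0.05 across genes between the gates (-0.04 with all barcodes). Counting intervals are exact (Clopper-Pearson), limits for a count of 0 are 3 counts of the total, and both cover counting error only. Other imprinted genes, S phase, G2/M and the remaining lists were compiled by hand.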

Additional observations from a re-analysis of the deposited data

Results flagged for a closer look

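Igf2r went opposite ways in the 2 mice: its log2 ratio of LT-HSC over ST-HSC was 1.21 in mouse 1 and -0.091 in mouse 2. For Gnas the ratios were -0.54 in mouse 1 and 0.086 in mouse 2. The difference between mice was not tested, and the mouse 1 ratios rest on 4 Igf2r and 41 Gnas UMIs in 22 LT-HSC.

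The barcodes of the mouse 1 LT-HSC library that did not pass the cell filter held 1350 UMIs of Meg3, 17 of Mirg and 14 of H19. Its kept cells held no UMI of Mirg or H19, and 14 of Meg3 (115 CPM). In CPM, all its barcodes gave 112 for Meg3, 1.40 for Mirg and 1.15 for H19, against 141, 1.47 and 1.70 in kept LT-HSC of mouse 2.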

How the results depend on the processing

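By gate, the calls of genes higher and lower in LT-HSC (455 and 396) became 29 and 24 with DESeq2, 849 and 628 with all barcodes of mouse 1 and the replicate block, and ran from 1 to 602 and from 0 to 365 when 1 library was left out, lowest without LT-HSC of mouse 2 in both (a lone LT-HSC sample is assumed to vary like ST-HSC). Members higher in LT-HSC (3) were 5 with all barcodes, 5 with all barcodes and the replicate block, 5 without the low-count filter, and 0 to 5 when 1 library was left out. With the replicate block alone, Meg3, Grb10 and Ndn all passed, and no member's call changed. The sign of genes that did not pass by gate changed: Igf2r -0.0038 with the replicate block and -0.048 to 1.10 when 1 library was left out; Gnas 0.15, 0.14, 0.14 and 0.30 and Kcnq1ot1 -0.027, -0.032, -0.037 and -0.27 in the settings with all barcodes; Cd81 -0.37 to 0.28 and Tspan32 -0.39 to 0.096 when 1 library was left out. Tspan32 was also at -0.041 with DESeq2, -0.061 with the replicate block, -0.00074 without a filter, and -0.00039, -0.0043, -0.0024 and -0.11 with all barcodes. Dlk1, absent from the kept mouse 1 cells, was at -7.48 (SE 12.4) without LT-HSC of mouse 2, and at up to 2.95 without another library.

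By Meg3, genes higher and lower (271 and 307) became 76 and 56 with DESeq2, 113 and 142 at 3000 UMIs, and 2 and 5 with no replicate block, that is without the library as a term. Higher genes were 169 at 2 or more Meg3 UMIs, 170 without a filter and 162 in 1 added draw; lower genes were 484 without thinning. Leaving out 1 library gave 117 to 214 higher and 102 to 230 lower. Members higher (2) were 0 with DESeq2, at 2 or more Meg3 UMIs, with no replicate block and without LT-HSC of mouse 2 or ST-HSC of mouse 1, 1 at 3000 UMIs and in 2 added draws, and 4 in another. Gnas, near 0, was at -0.017, -0.032, -0.038, -0.038 and -0.060 in added draws, -0.026 with another seed, -0.040 at 2 or more Meg3 UMIs, -0.055 at 3000 and -0.060 at 6000 UMIs, -0.031 without a filter, -0.035 without thinning, and -0.036 to 0.037 when 1 library was left out. Igf2r was at -0.18 and Slamf1 at -0.14 in 1 added draw each, and S100a9 at 0.54 without cells of other types. The mean ratio of variance to mean of Meg3 (3.22) was 2.48 at 3000 UMIs and 4.93 without thinning. Of Mirg-positive cells, 90.0 to 100% held Meg3 when 1 library was left out. The 12 genes most like Meg3 shared 8 to 12 members under every alternative run. Of 210 values of named genes under the alternatives by gate, 174 kept their direction and side of the threshold, 14 lost the call and 22 changed sign; of 1161 by Meg3, 141 lost the call, 5 gained it, 16 changed sign and the rest kept both. The cause of the other shifts was not tested. The LT-HSC library of mouse 1 limits what 2 mice can show, since 22 kept cells hold under 3 UMIs of any gene below 24.6 CPM.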
